A study of Canis lupus familiaris with 6 samples.

Results

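The genes described here carry out or start the copying of DNA: 47 genes were listed by name for origin licensing, origin firing, the replication fork, deoxynucleotide supply, the G1-S step and the assembly of new chromatin. A row of the expression tables with the gene's symbol was found for 44 of them, out of 30951 genes in all. DBF4, PRIM1 and E2F1 had no row under those symbols and were not analysed here. All 44 had enough counts to enter the tests, together with the other genes among the 12270 tested. The rule names the genes and uses no measured value, but the list was drawn up with earlier results of these data known.

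RNA was sequenced from CMM2 and CMM12, which are canine melanoma cell lines. Each line gave 3 libraries: 1 of the control, labelled WT, and 1 of each of the podoplanin knockout (KO) lines called KO 1 and KO 2. Podoplanin is a mucin-like glycoprotein of the cell membrane. The labels state neither how the gene was disrupted nor whether a KO line is a single clone or a pool, and nothing says that a KO number means the same in both lines. No treatment, passage number or time is named in the labels. Nothing says that libraries came from separate cultures, so a p-value reflects the spread of these libraries alone, which may be technical.

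DNA replication runs in ordered steps. In G1 the origin recognition complex, CDC6 and CDT1 load the MCM2 to MCM7 helicase on DNA, which is called licensing. At the G1-S step, cyclin E with CDK2 and the kinase CDC7 turn the loaded helicase on with the help of CDC45 and the GINS complex, and the polymerases, the sliding clamp PCNA and its loaders then copy both strands. Many of these genes are textbook targets of E2F transcription factors and peak in late G1 and S phase, so in a growing culture their RNA is widely used as a readout of proliferation.

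The libraries held 9732927 to 11807835 estimated counts. PDPN, the podoplanin gene, stood at 19.1, 5.71 and 5.96 TPM (a transcript level scaled for gene length and library) in the control, KO 1 and KO 2 of CMM2 and at 94.3, 16 and 10.8 TPM in CMM12, so every KO library was below its control. The fitted log2 change of PDPN across lines was −2.36 (SE 0.28), with an adjusted p of 0.288 in edgeR and 4.21e-08 in DESeq2. Of 10 melanocytic markers, DCT was at 0 in all libraries and MLANA, TYR, SOX10 and S100B were below 1 TPM in each of them, whereas MITF lay between 10.7 and 21.7 TPM and CSPG4 between 13.4 and 69.9 TPM. PMEL lay between 0.41 and 1.82 TPM. TYRP1, a melanin synthesis gene, was at 2.09, 2.22 and 3.45 TPM in CMM12 and at 0 in all 3 CMM2 libraries. PTPRC and CD3E, which mark leukocytes, were at 0 in all 6 libraries. Of the pairs of libraries within a line, the CMM2 control and CMM2 KO 1 differed least (chi-square per degree of freedom 14.1), against 32.4 to 57.3 for the other pairs.

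The replication genes were abundant in all 6 libraries. Their median lay between 57.2 and 73.6 TPM, above the median of 19.8 TPM over all genes tested (each taken as its mean over libraries). Added together they made up 4897, 4894 and 3877 TPM in the CMM2 control, KO 1 and KO 2 and 3614, 3810 and 3695 TPM in the CMM12 control, KO 1 and KO 2. The sum was lowest of its line in CMM2 KO 2, while the CMM12 libraries lay between 3614 and 3810 TPM. PCNA and TK1 had the highest mean levels of the list (397 and 323 TPM), and CCNE2 and GINS3 the lowest (12.5 and 13.8 TPM).

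**Figure D1:**
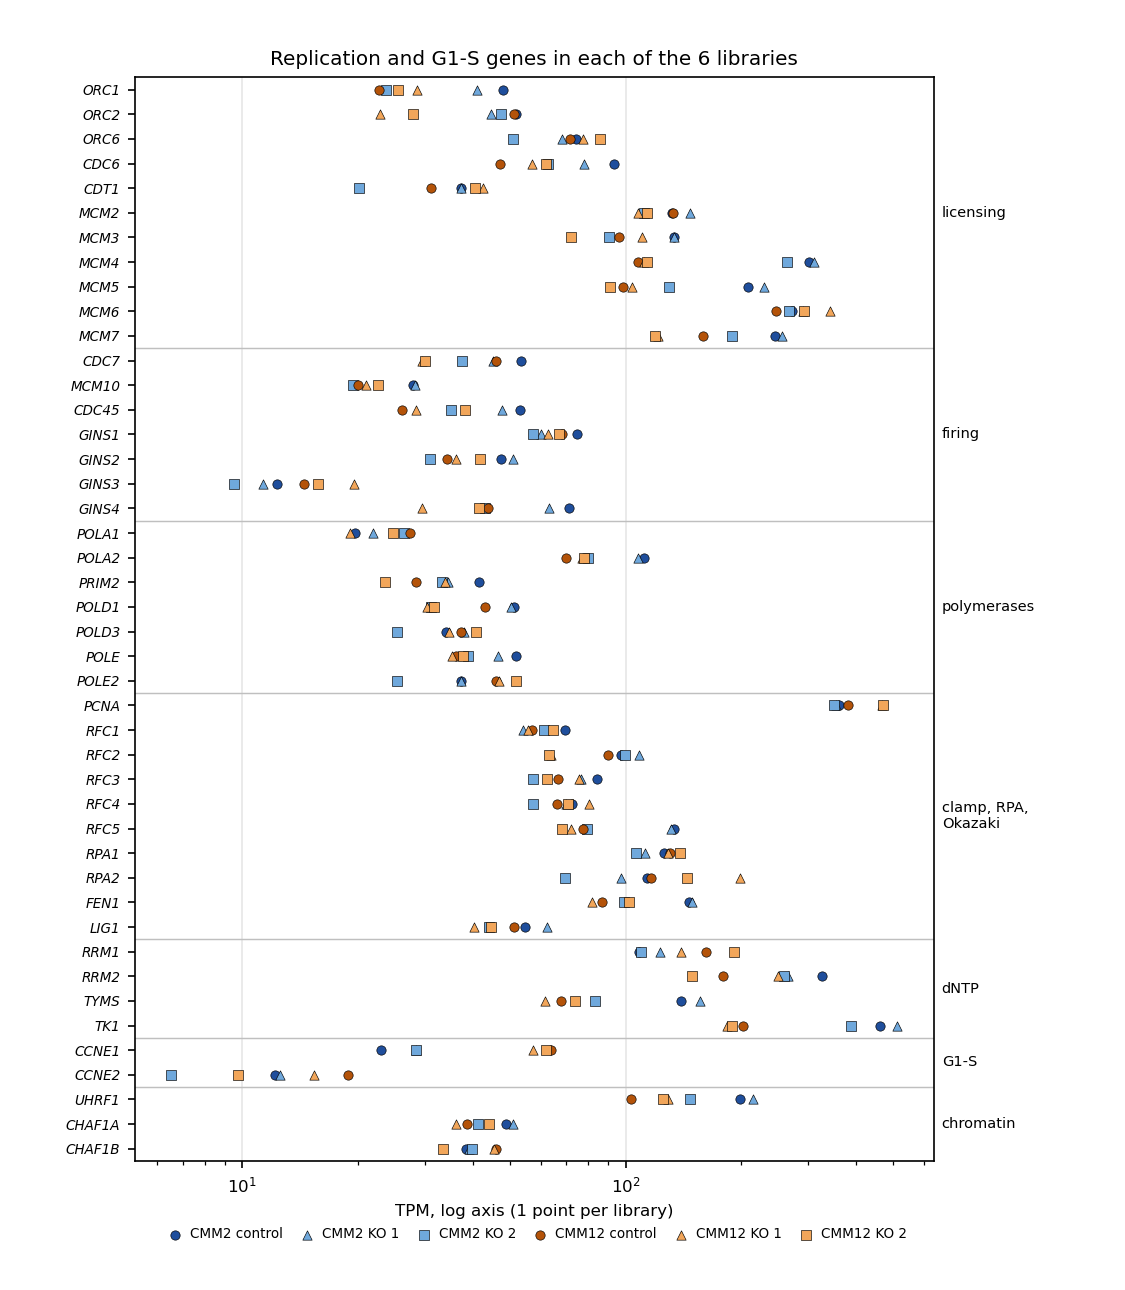
Level of each of the 44 genes in TPM (horizontal log axis) in the 6 libraries. Blue symbols are CMM2 and orange symbols CMM12, with circles for controls, triangles for KO 1 and squares for KO 2, and rows grouped by role. MCM4 and TK1 separate the lines, with CMM2 at 264 to 309 and 387 to 512 TPM and CMM12 at 108 to 114 and 184 to 203 TPM.

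The genes that passed a test did so between the lines. With genotype in the model, 13 of the 44 genes differed between CMM12 and CMM2 (edgeR quasi-likelihood test, adjusted p under 0.05), against 25.8% of all genes tested. Of these, 12 were lower in CMM12, where 11.2% of all genes were called, and 1 was higher, where 14.6% were. Over the whole list 33 genes were lower, and the median log2 fold change was −0.39, beside 0.04 over all genes tested. DESeq2 called 19 (32.2% of all genes): 17 lower (14.5%) and 2 higher (17.7%), and limma on log2(TPM + 1), where 28 of 44 were lower, called 7 (23.9% of all genes).

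Every library of CMM12 lay below every library of CMM2 for 17 of the 44 genes, against 21.5% of all genes tested. Every CMM12 library lay above every CMM2 library for 4 (GINS3, POLE2, RRM1 and CCNE1), against 24.6%. These orders were read on log2 CPM (counts scaled to library size) and depended on the scale. On TPM, CDC45, GINS4, PRIM2, FEN1 and CHAF1A, all among the 17, overlapped between the lines. PCNA, RPA1 and RPA2 also lay wholly above on TPM, where no share over all genes was computed. The count of calls moved with single libraries. With 1 library left out it was 6 (without the CMM2 control), 4 (CMM2 KO 1), 19 (CMM2 KO 2), 6 (CMM12 control), 8 (CMM12 KO 1) and 4 (CMM12 KO 2). MCM4, MCM7, TK1 and CCNE1 passed the threshold in all 15 alternative analyses. The other 9 lost the call in at least 1 of them.

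**Figure D2:**
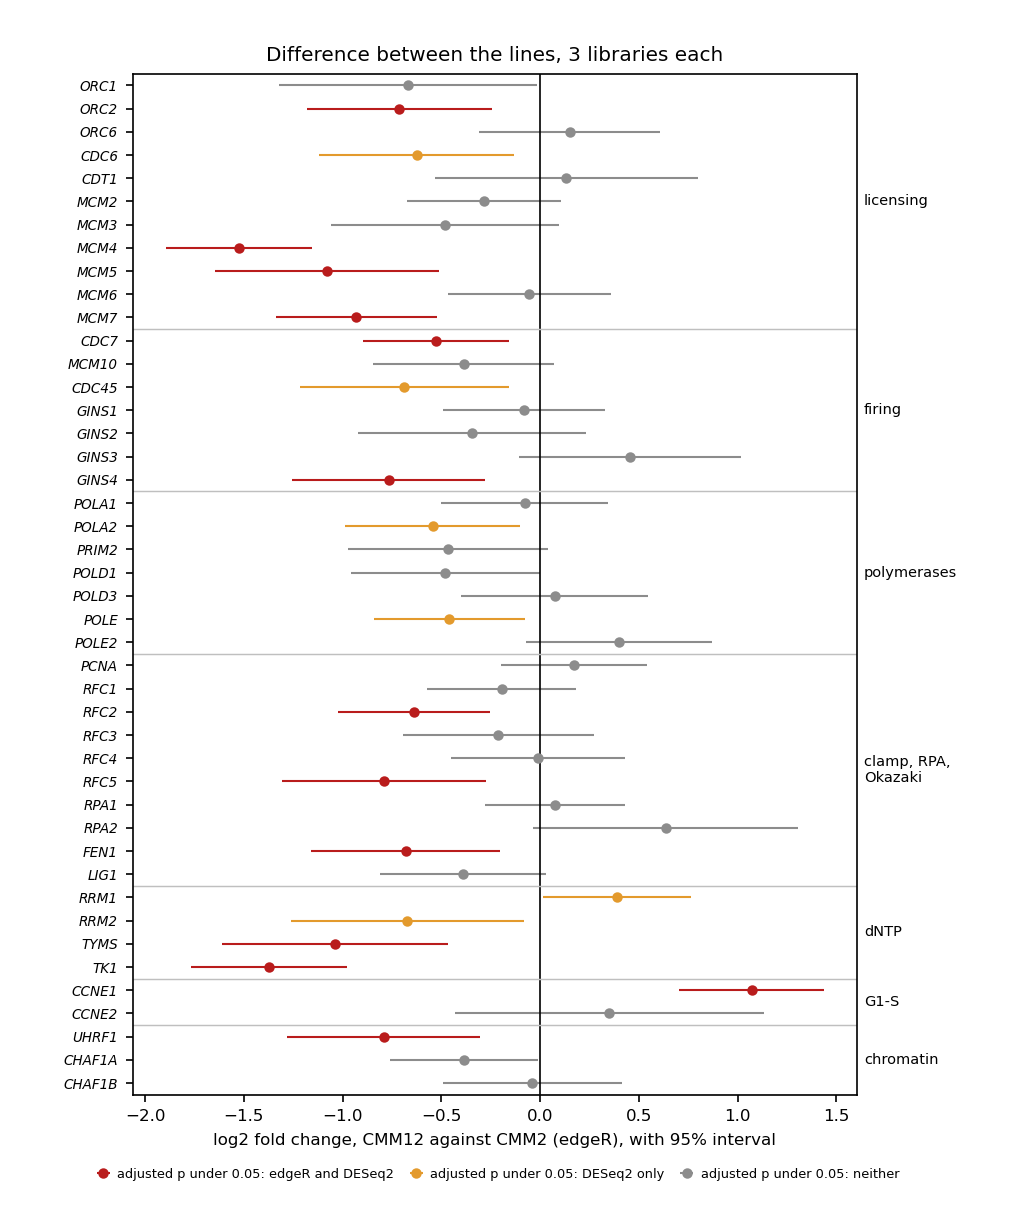
Fitted log2 fold change of CMM12 against CMM2 (edgeR, genotype in the model) for the 44 genes, with 95% intervals, 3 libraries per line. Red points passed an adjusted p of 0.05 in edgeR and DESeq2, orange points in DESeq2 only, grey points in neither. CCNE1 at 1.07 stands alone on the right among red points, and MCM4 at −1.53 and TK1 at −1.37 are farthest to the left.

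No replication gene passed the test between the podoplanin KO lines and their controls. With both lines in the model, 0 of 44 genes were called by edgeR (0% of all genes tested) and 0 by DESeq2 (0.0733%), and 2 had an unadjusted p under 0.05 in each of edgeR, DESeq2 and limma. Within CMM2, 0 were called by edgeR (0%) and 0 by DESeq2 (0.0489%), with 0 at an unadjusted p under 0.05 in all 3 tools. Within CMM12, 0 were called by edgeR (0.00815%) and 0 by DESeq2 (0.367%), with 1, 1 and 2 at an unadjusted p under 0.05 in edgeR, DESeq2 and limma. The 95% interval of a gene's KO effect across lines had a median half-width of 0.49 on the log2 scale, and for 20 of 44 genes it still held a 1.5-fold decrease, so a decrease of that size lay within the error for them.

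In CMM2 the fitted KO effect was below 0 for 38 of 44 genes (median −0.27, beside 0.00 over all genes), and the median was −0.02 with 25 below 0 without KO 2 and −0.46 without KO 1. In CMM12 it was above 0 for 29 of 44 (median 0.08, beside 0.02). These comparisons share their control libraries with the single-library ones below. Across lines 34 of 44 were below 0 (median −0.07, beside 0.01). That last direction rested on single libraries: without CMM2 KO 2 the median was 0.07 with 20 genes below 0, and without the CMM2 control it was 0.08 with 15 below 0.

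The test of the difference between the lines' KO effects called 0 of 44 genes in edgeR (0% of all genes) and 0 in DESeq2 (0.179%), with 0 at an unadjusted p under 0.05 in edgeR and 1 in DESeq2. The median difference, CMM12 minus CMM2, was 0.33 with 33 genes above 0, beside −0.01 over all genes, and was 0.13 without CMM2 KO 2 and 0.51 without CMM2 KO 1. RPA2 (1.00, SE 0.51) and CDC6 (0.83, SE 0.36) were among the larger ones, each with an edgeR adjusted p of 1.

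The lower values of CMM2 lay mainly in KO 2. Each KO library has 1 control beside it, so these are differences of 1 library against 1, without a test, on log2 CPM (counts scaled to library size). In CMM2 KO 1 the genes lay close to the control: 25 were lower, the median difference was −0.02, and 0 were lower or higher by 1.5-fold, against 5.34% and 7.61% of all genes tested. In CMM2 KO 2, 41 of 44 were lower than the control, with a median of −0.46, 15 were at least 1.5-fold lower (11.0% of all genes) and 0 at least 1.5-fold higher (17.0%). Among the 7463 genes at or above the mean TPM of the lowest member, 7.29% were 1.5-fold lower there.

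CMM2 KO 2 was the lowest library of its line for 39 of 44 genes on CPM and for 37 on TPM. That order was not counted over all genes. Of all genes tested, 48.9% were lower in CMM2 KO 2 than in the control and 48.1% lower than in KO 1, on log2 CPM. The difference did not depend on the scaling: 39 to 41 genes were lower with TMM, median-of-ratios factors, library totals or log2(TPM + 1). The genes of CMM2 KO 2 at least 1.5-fold below the control included ORC1 (−1.05), CCNE2 (−0.92), CDT1 (−0.92), RFC5 (−0.80), TYMS (−0.78) and RPA2 (−0.78), on the log2 CPM scale. In bulk RNA, fewer cells in S phase and less of these RNAs per cell cannot be told apart. The sum of the fibroblast marker list was also highest of CMM2 in this library, mainly through collagen genes. Its 8 genes summed to 343 to 2779 TPM in CMM2 and to 951 to 2299 TPM in CMM12. In the CMM2 control, KO 1 and KO 2, COL1A1 stood at 229, 391 and 520 TPM and COL1A2 at 37.9, 215 and 974 TPM. COL3A1 stood at 55.9, 157 and 1246 TPM. DCN and LUM were below 1 TPM, PDGFRB at most at 1.42 TPM and THY1 at 0 in all 3 CMM2 libraries. The part of these genes in the result was not tested.

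In CMM12 the KO libraries scattered around the control. In CMM12 KO 1, 29 genes were higher (median 0.10), 1 was at least 1.5-fold lower (14.1% of all genes) and 3 at least 1.5-fold higher (12.9%). With log2(TPM + 1) 21 of the 44 were higher, but that scaling moved all genes (median −0.09), and the genes' median of −0.02 stayed above it, as 0.10 was above 0.00 with TMM. In CMM12 KO 2, 24 were higher (median 0.07), 3 were at least 1.5-fold lower (13.0%) and 0 at least 1.5-fold higher (14.7%).

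On log2 CPM, both KO libraries of CMM2 lay below the control for 25 of the 44 genes, against 30.9% of all genes. Both lay above it for 3 (POLA1, CCNE1 and CHAF1B), against 34.5%. In CMM12 both lay below the control for 13 (34.2% of all genes) and above it for 22 (35.6%). All 4 KO libraries were below their controls for 5 genes, ORC2, CDC7, GINS1, GINS4 and POLD1, which is a share near the 10.6% of all genes, and all 4 were above for 0, against 12.1%.

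**Figure D3:**
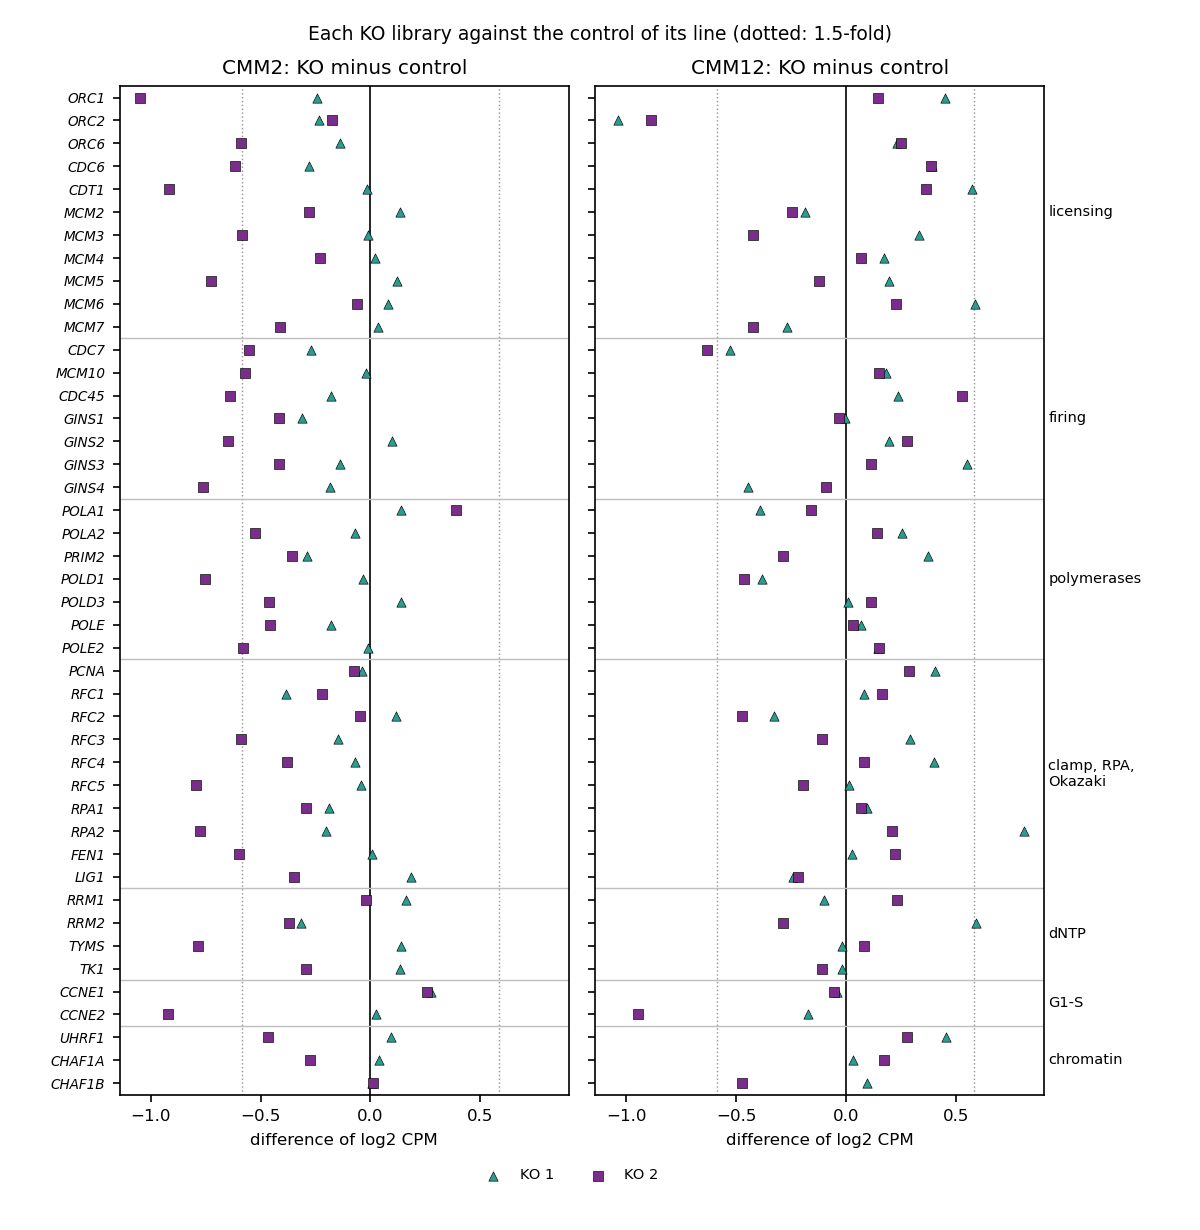
Difference of log2 CPM between each KO library and the control of its line for the 44 genes, CMM2 on the left and CMM12 on the right. Triangles are KO 1 and squares KO 2, and dotted lines mark 1.5-fold. The squares of CMM2 lie left of 0 for 41 of 44 genes, while its triangles and both symbols of CMM12 lie on both sides.

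KO 2 was then set against KO 1 over both lines, which compares the KO lines with each other. The controls stayed in the model of line and KO number. They fed the spread and, with a KO library left out, the estimate too. In this fit 40 of 44 genes were below 0 (median −0.26, beside 0.01 over all genes), and the median was −0.07 without CMM2 KO 2 and −0.45 without CMM12 KO 2. No gene passed, with 0 of 44 called by edgeR (0% of all genes) and 0 by DESeq2 (0.220%). At an unadjusted p under 0.05 there were 3 in edgeR, 3 in DESeq2 and 2 in limma. MCM3, CCNE2 and MCM5 had the smallest p, and their values are given with their roles below.

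Within a line, KO 2 and KO 1 are 1 library each. In CMM2, KO 2 was below KO 1 for 40 genes (median −0.44), 10 were at least 1.5-fold lower (10.7% of all genes) and 0 at least 1.5-fold higher (14.3%). In CMM12 it was below for 30 (median −0.09), 5 were at least 1.5-fold lower (10.9%) and 0 higher (14.0%). On log2(TPM + 1), 17 of the 44 were lower in CMM12, but all genes had a median of 0.12 there, and the genes' median of 0.05 stayed below it, as −0.09 was below 0.01 with TMM. On log2 CPM, KO 2 was below KO 1 in both lines for 29 genes (24.2% of all genes) and above in both for 3, ORC2, POLA1 and RFC1 (25.2%). Many mitosis and G2-M genes were below in both lines as well, as given with that list below.

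**Figure D4:**
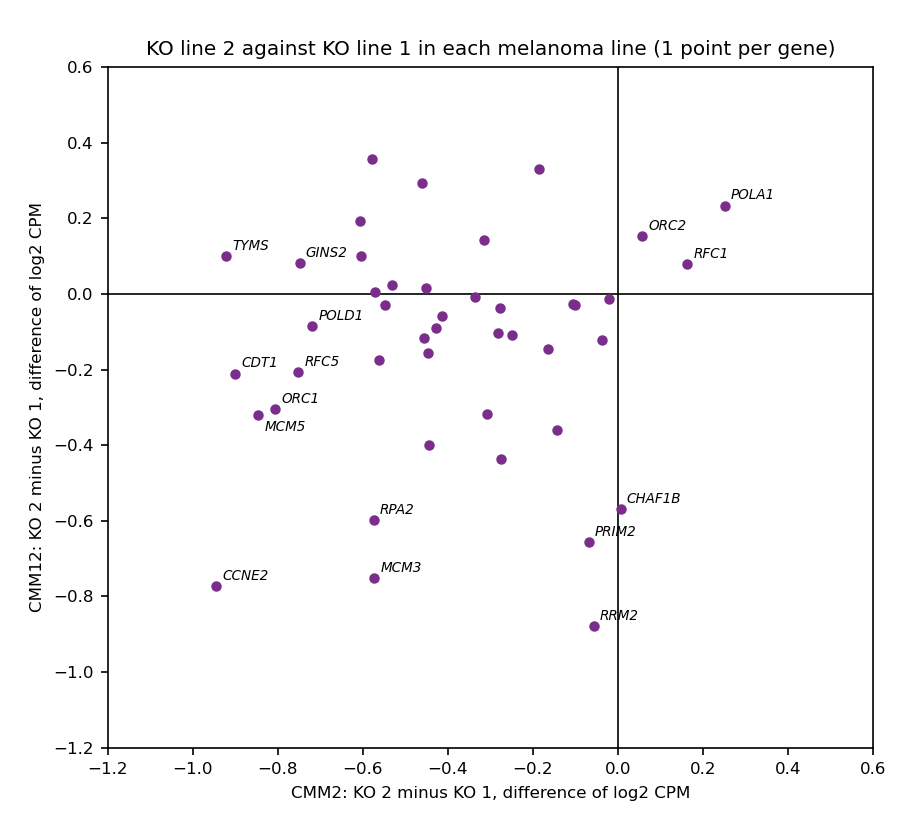
Difference of log2 CPM between KO 2 and KO 1 in CMM2 (horizontal) and CMM12 (vertical), 1 point per gene. CCNE2, MCM3 and RPA2 are low on both axes, RRM2 is low in CMM12 alone (−0.88, against −0.06 in CMM2), and TYMS in CMM2 alone (−0.92, against 0.10).

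Of the 11 origin licensing genes, 4 were called between the lines by edgeR (25.8% of all genes), and MCM4 had the smallest p of the list. MCM4, a subunit of the helicase ring, stood at 301, 309 and 264 TPM in the CMM2 control, KO 1 and KO 2 and at 108, 112 and 114 TPM in CMM12 in the same order, which is the order used below. The lines did not overlap, and the difference was −1.53 on the log2 scale (SE 0.16, edgeR adjusted p = 0.00147), a 2.88-fold lower level in CMM12. MCM7 stood at 245, 255 and 189.6 TPM in CMM2 and 159, 121 and 119.6 TPM in CMM12 (−0.93, SE 0.17, edgeR adjusted p = 0.00958). MCM5 stood at 209, 229.6 and 129.5 TPM and 98.6, 104 and 91.3 TPM (−1.08, SE 0.24, edgeR adjusted p = 0.0177). All 3 subunits were lower in every library of CMM12 than in any of CMM2.

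The other ring subunits, MCM2, MCM3 and MCM6, overlapped between the lines. MCM2 stood at 132, 147 and 112 TPM in CMM2 and 133, 108 and 114 TPM in CMM12 (line difference −0.28, SE 0.17, edgeR adjusted p = 0.245). MCM6 was at 271, 291 and 268 and 247, 342 and 292 TPM, with no order between the lines, and its KO effect in CMM12 was 0.42 (SE 0.27). The KO effect of MCM2 was −0.14 across lines (SE 0.18), −0.06 in CMM2 (SE 0.27) and −0.22 in CMM12 (SE 0.27), none of them called. The 6 subunits assemble in equal numbers, and their RNA levels spanned 2.28-fold from the lowest to the highest in the CMM2 control and 4.06-fold in CMM12 KO 2. MCM6 took the highest place in all 3 CMM12 libraries, MCM4 in the control and KO 1 of CMM2.

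MCM3 was the gene with the smallest unadjusted p between the KO lines (0.0111 in edgeR, where the adjusted p was 0.943). It stood at 134, 134 and 90.7 TPM in CMM2 and 96.1, 110.1 and 72 TPM in CMM12. KO 2 was the lowest library in both lines, with a fitted difference of −0.67 (SE 0.19). Of the licensing genes MCM5 came next with −0.57 (SE 0.22, unadjusted p = 0.0367 in edgeR, adjusted p = 0.943), and was −0.29 without CMM2 KO 2 and −0.87 without CMM12 KO 2. MCM2 was at −0.24 (SE 0.19).

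ORC2, a core subunit of the origin recognition complex, was the gene whose KO effect stood out most in CMM12. Its level was 51.9, 44.7 and 47.2 TPM in CMM2 and 51.3, 22.9 and 27.9 TPM in CMM12, so both CMM12 KO libraries were well below their control and the CMM2 KO libraries slightly below theirs. The KO effect was −0.96 in CMM12 (SE 0.24, 95% interval −1.53 to −0.39, unadjusted p = 0.00558, edgeR adjusted p = 0.697) and −0.60 across lines (SE 0.21, adjusted p = 0.987). Over the alternatives the CMM12 value ran from −1.04 to −0.89 and its adjusted p from 0.279 to 0.818. Without the CMM12 control the effect across lines was −0.20. The difference of KO effects between lines was −0.76 (SE 0.34, edgeR adjusted p = 1).

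ORC2 was also called between the lines (−0.71, SE 0.20, edgeR adjusted p = 0.0384), although the controls were at 51.9 and 51.3 TPM and the lines overlapped. ORC1, the largest subunit of the same complex, was at 47.9, 41.1 and 23.8 TPM in CMM2 and 22.8, 28.6 and 25.4 TPM in CMM12. It was the only gene of the list at least 2-fold below the control in CMM2 KO 2 (−1.05 on log2 CPM), and its fitted KO effect in CMM2 was −0.59 (SE 0.36, edgeR adjusted p = 1).

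CDC6 and CDT1 load the helicase onto origins. CDC6 stood at 93.4, 78 and 62.7 TPM in CMM2 and 47.1, 56.9 and 62.1 TPM in CMM12: both KO libraries were below the control in CMM2 and above it in CMM12. The difference of its KO effects was 0.83 (SE 0.36, unadjusted p = 0.0553 and adjusted p = 1 in edgeR). The line difference was −0.62 (SE 0.21, edgeR adjusted p = 0.067, DESeq2 0.0316). The KO effect across lines was −0.05 (SE 0.22) and KO 2 against KO 1 −0.16 (SE 0.27). CDT1 stood at 37.2, 37.3 and 20.2 TPM in CMM2, where KO 2 was below the control and KO 1 level with it, and at 31, 42.6 and 40.4 TPM in CMM12, where both KO libraries were above it. ORC6, at 50.8 to 85.7 TPM, overlapped between the lines.

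Among the origin firing genes, CDC7, GINS1 and GINS4 were lower than the control of their line in all 4 KO libraries by CPM. The share of the whole list with this pattern, 5 of 44, was near the 10.6% of all genes. CDC7 is the kinase that phosphorylates the loaded helicase. It stood at 53.5, 45 and 37.5 TPM in CMM2 and 45.9, 29.5 and 30.0 TPM in CMM12. The KO effect across lines was −0.49 (SE 0.16, 95% interval −0.88 to −0.11), which had the smallest unadjusted p of the list in that comparison (0.0189, edgeR) and an adjusted p of 0.987. Over the alternatives it ran from −0.58 to −0.40, with adjusted p from 0.764 to 1. In CMM12 alone it was −0.58 (SE 0.25, edgeR adjusted p = 0.832) and in CMM2 alone −0.40 (SE 0.25, adjusted p = 1).

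GINS4 and CDC7 were called between the lines in edgeR. GINS4, a subunit of the GINS complex that joins the helicase, stood at 71.2, 63.2 and 43 TPM in CMM2 and 43.7, 29.5 and 41.4 TPM in CMM12, which overlap on TPM and not on CPM (−0.77, SE 0.21, edgeR adjusted p = 0.0346). For CDC7 the line difference was −0.53 (SE 0.16, edgeR adjusted p = 0.0466) with overlapping lines. CDC45, the other cofactor of the active helicase, had 53, 47.5 and 35 TPM in CMM2 and 26.1, 28.3 and 38.1 TPM in CMM12. The lines overlapped on TPM and not on CPM, and DESeq2 called it (adjusted p = 0.0292) where edgeR did not (adjusted p = 0.0618).

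The remaining firing genes did not pass in any comparison. GINS1 lay between 57.2 and 74.7 TPM and GINS2 between 30.8 and 51 TPM in all libraries. GINS3, the lowest GINS subunit at 9.50 to 19.6 TPM, was higher in every CMM12 library than in any CMM2 library. MCM10, which helps start unwinding, lay between 19.5 and 28.2 TPM, with −0.28 (SE 0.23) for KO 2 against KO 1. The KO effect of GINS1 was −0.36 in CMM2 (SE 0.26), and that of CDC45 was 0.39 in CMM12 (SE 0.30). In CMM2 KO 2 all 7 firing genes were below the control, with a median of −0.57.

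No polymerase or primase gene was called by edgeR in any of the comparisons. POLA2, the regulatory subunit of the polymerase that primes synthesis, stood at 112, 108 and 79.9 TPM in CMM2 and 70.1, 77.1 and 78 TPM in CMM12 (−0.54, SE 0.19, edgeR adjusted p = 0.0723, DESeq2 0.0331). POLE, the catalytic subunit of the leading-strand polymerase, was at 51.6, 46.6 and 38.9 TPM and 36.2, 35.2 and 37.7 TPM (−0.46, SE 0.16, edgeR adjusted p = 0.0767, DESeq2 0.0255). Both were lower in every CMM12 library than in any CMM2 library.

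POLD1, the catalytic subunit of the lagging-strand polymerase, was below its control in all 4 KO libraries, as were 10.6% of all genes tested. It stood at 51, 50.3 and 31.1 TPM in CMM2, where KO 1 was near the control, and at 43.1, 30.4 and 31.6 TPM in CMM12. The KO effect across lines was −0.39 (SE 0.21, edgeR adjusted p = 0.987). POLA1, the catalytic subunit of the priming polymerase, went the other way in CMM2 at 19.6, 22 and 26.5 TPM, and was the only gene of its role above the control in CMM2 KO 2. PRIM2, a primase subunit, POLD3 and POLE2 lay between 23.5 and 51.8 TPM, and POLE2 was higher in every CMM12 library than in any of CMM2.

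PCNA, the sliding clamp and the most abundant gene of the list, did not follow the lower values of CMM2 KO 2. It stood at 359.9, 353 and 350.0 TPM in CMM2 and 381, 467 and 468 TPM in CMM12. The CMM2 libraries were nearly level, and both CMM12 KO libraries were above their control. The KO effect was −0.06 in CMM2 (SE 0.23, 95% interval −0.62 to 0.50), 0.35 in CMM12 (SE 0.24, edgeR adjusted p = 0.886) and 0.14 across lines (SE 0.17, edgeR adjusted p = 0.987). The line difference was 0.17 (SE 0.16, edgeR adjusted p = 0.453).

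The clamp loader subunits RFC2 and RFC5 were called between the lines. RFC2 stood at 97.3, 108 and 99.9 TPM in CMM2 and 90.1, 63.9 and 63 TPM in CMM12 (−0.64, SE 0.16, edgeR adjusted p = 0.028). Its KO effect was −0.40 in CMM12 (SE 0.23, adjusted p = 0.864) and −0.18 across lines (SE 0.17), neither called by edgeR. RFC5 stood at 134, 131 and 79.3 TPM in CMM2 and 77.3, 72.1 and 68.3 TPM in CMM12 (−0.79, SE 0.22, edgeR adjusted p = 0.0371), and CMM2 KO 2 was nearer to CMM12 than to the rest of its line. RFC1, RFC3 and RFC4 lay between 54 and 84 TPM and overlapped between lines. The 4 small subunits RFC2 to RFC5 were close in level, with a highest-to-lowest ratio from 1.13 in CMM12 KO 2 to 1.88 in CMM2 KO 1.

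FEN1, the nuclease that trims Okazaki fragments, was called between the lines (−0.68, SE 0.20, edgeR adjusted p = 0.0464). It stood at 147, 149 and 99.3 TPM in CMM2 and 86.7, 81.6 and 102 TPM in CMM12, where CMM2 KO 2 and CMM12 KO 2 overlap on TPM and not on CPM. LIG1, the ligase that seals the fragments, lay between 40.3 and 62.5 TPM. RPA2, a subunit of the single-strand binding protein, stood at 114, 97.3 and 69.5 TPM in CMM2 and 117, 198 and 145 TPM in CMM12, so its highest and lowest libraries were both KO lines. The difference of its KO effects was 1.00 (SE 0.51, unadjusted p = 0.0943 and adjusted p = 1 in edgeR). RPA1, at 106 to 138 TPM, varied little.

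Deoxynucleotide supply held 2 of the largest line differences. TK1, the thymidine kinase of the salvage route, stood at 462, 512 and 387 TPM in CMM2 and 203, 184 and 189.9 TPM in CMM12. The difference was −1.37 (SE 0.17, edgeR adjusted p = 0.00238), a 2.59-fold lower level in CMM12. TYMS, the thymidylate synthase of the de novo route, stood at 139, 156 and 83.5 TPM and 67.8, 61.8 and 73.6 TPM (−1.04, SE 0.25, edgeR adjusted p = 0.0209). CMM2 KO 2 was the CMM2 library nearest to CMM12, and without it the TYMS difference was −1.29.

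The KO comparisons of TYMS were small against their errors, at −0.11 across lines (SE 0.26), −0.25 in CMM2 (SE 0.38) and 0.03 in CMM12 (SE 0.39). RRM2, the subunit of ribonucleotide reductase that limits its activity in S phase, stood at 325, 265 and 258 TPM in CMM2 and 179, 249 and 149 TPM in CMM12. The CMM12 KO lines lay on either side of their control. The line difference was −0.67 (SE 0.25, edgeR adjusted p = 0.0895, DESeq2 0.0389), KO 2 against KO 1 gave −0.49 (SE 0.27, edgeR adjusted p = 0.943) and the KO effect across lines was −0.07 (SE 0.27). RRM1, the large subunit, was higher in CMM12, at 109, 123 and 110.0 TPM in CMM2 and 162, 139 and 192 TPM in CMM12, and was called by DESeq2 (0.0437) and not by edgeR (0.112).

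The cyclins E bind CDK2 and drive the G1-S step. CCNE1 was the only gene of the list called higher in CMM12 by edgeR: 23.1, 28.3 and 28.4 TPM in CMM2 and 63.9, 57.3 and 62.1 TPM in CMM12 (1.07, SE 0.16, edgeR adjusted p = 0.00416), a 2.1-fold higher level. The lines did not overlap. The KO effect of CCNE1 was 0.27 in CMM2 (SE 0.24) and −0.05 in CMM12 (SE 0.24), and neither passed.

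CCNE2 did not share that pattern. It stood at 12.2, 12.5 and 6.53 TPM in CMM2 and 18.9, 15.4 and 9.76 TPM in CMM12, with KO 2 the lowest library of both lines. KO 2 against KO 1 gave −0.87 (SE 0.29, unadjusted p = 0.020 and adjusted p = 0.943 in edgeR). The KO effect across lines was −0.45 (SE 0.35, edgeR adjusted p = 0.987) and the line difference 0.35 (SE 0.34, edgeR adjusted p = 0.47).

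Of the chromatin genes, UHRF1, which recruits the maintenance methyltransferase to newly copied DNA, was called between the lines. It stood at 198, 215 and 148 TPM in CMM2 and 103, 129 and 125 TPM in CMM12 (−0.79, SE 0.21, edgeR adjusted p = 0.0306). CHAF1A and CHAF1B, subunits of the histone chaperone CAF-1, lay between 33.4 and 50.7 TPM. CHAF1A was lower in every CMM12 library than in any CMM2 library on CPM (−0.38, SE 0.16, edgeR adjusted p = 0.117), and the KO effect of CHAF1B was −0.08 across lines (SE 0.21). The KO effect of UHRF1 was 0.37 in CMM12 (SE 0.31), −0.16 in CMM2 (SE 0.30) and −0.36 for KO 2 against KO 1 (SE 0.23), none of them called.

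The genes beside the called ones on the chromosome were read from the RefSeq gene order of the assembly UU_Cfam_GSD_1.0, which is not the build of the files. Of 6 tested neighbours of MCM4, 5 were lower in CMM12, 4 of them called in edgeR, with a median of −1.10. PRKDC, a DNA repair kinase gene, stood at 10.6, 10.7 and 10.5 TPM in CMM2 and 3.69, 2.87 and 4.2 TPM in CMM12, a log2 difference of −1.71 (SE 0.17). UBE2V2 and SNAI2 were lower as well (−0.96 and −1.23), while EFCAB1 was higher (3.88, SE 0.66). Over all genes tested 47.8% were lower in CMM12 and 11.2% were called lower. Of 10 tested neighbours each, 10 were lower for ORC2 (median −0.55, 4 called), 9 for RFC2 (−0.49, 2 called), 8 for MCM7 (−0.33, 2 called) and CDC7 (−0.30, 1 called), 7 for TYMS (−0.33, 0 called), and 6 for RFC5 (−0.33, 4 called) and FEN1 (−0.31, 1 called). Those of UHRF1 and GINS4 were divided, with 5 lower each, and 4 each were lower for TK1 (median 0.08), for MCM5 (median 0.53, against −1.08 for MCM5 itself) and, of 9, for CCNE1 (median 0.01).

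Of 32 other fork and origin genes 26 had a row and 25 were tested. Between the lines 9 were called by edgeR, 5 lower and 4 higher (11.2% and 14.6% of all genes), with a median of −0.28. DUT, the dUTPase that keeps uracil out of DNA, had the largest line difference of them: 847, 833 and 687 TPM in CMM2 and 177, 179 and 171 TPM in CMM12 (−2.26, SE 0.17, edgeR adjusted p = 0.000451). MCMBP, which binds MCM subunits, was at −1.03 (SE 0.15), TICRR, needed for origin firing, at −1.06 (SE 0.18), TIMELESS, of the fork protection complex, at −1.05 (SE 0.18) and DNMT1, the maintenance methyltransferase, at −0.61 (SE 0.16). Higher were POLE3 (0.86, SE 0.20), MCM8 (0.78, SE 0.16), TIPIN (0.56, SE 0.17) and DSCC1 (0.54, SE 0.16). In the KO comparisons 0 were called by edgeR or DESeq2. TIPIN (−0.50, SE 0.23) and DNA2 (−0.54, SE 0.28) had the smallest p within CMM2, and RNASEH2A (0.63, SE 0.29) in CMM12.

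The mitosis and G2-M genes act later in the same cycle and are the most like group. In CMM2 KO 2 their median was −0.22 with 18 of 26 below the control, beside −0.46 and 41 of 44 for the replication genes, and 2 of 26 were at least 1.5-fold lower against 15 of 44. The other fork and origin genes had a median of −0.25 there. On log2 CPM, KO 2 was below KO 1 in both lines for 16 of the 26 mitosis genes (24.2% of all genes) and above in both for 0 (25.2%). In the fit of KO 2 against KO 1, 22 of 26 were below 0 (median −0.11), beside 40 of 44 replication genes (median −0.26). No test was made of the difference between lists. Between the lines 10 of 26 mitosis genes were called by edgeR, 3 lower and 7 higher (11.2% and 14.6% of all genes), with a median of 0.07.

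Among the mitosis genes NUF2, a kinetochore protein, stood at 55.5, 50.7 and 41.8 TPM in CMM2 and 179.7, 181 and 179.9 TPM in CMM12 (1.74, SE 0.17, edgeR adjusted p = 0.00115). MKI67, the Ki-67 proliferation antigen, was lower in CMM12, at 77.4, 78.9 and 85.6 TPM and 45, 49.8 and 47 TPM (−0.90, SE 0.15, edgeR adjusted p = 0.00632). MKI67 was above the control in all 4 KO libraries by CPM and was not called in any KO comparison. CENPF, a kinetochore protein, was called by DESeq2 in the CMM12 KO lines (0.0155) and not by edgeR (1.04, SE 0.25, adjusted p = 0.697).

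The G1-S control genes, 25 tested of 28 listed, include the D cyclins, CDK inhibitors and RB family. All 4 KO libraries were above their controls for 6 of 25 (CCND1, CCND3, CDKN1A, CDKN1B, CDKN2C and CDKN2D), against 12.1% of all genes. None of the 6 passed a KO comparison in the main edgeR test. CDKN1A in CMM12 was called in 2 of 13 alternative analyses, 1 of them DESeq2 (adjusted p = 0.000276). CDKN2C, the CDK inhibitor p18, stood at 67, 104 and 107 TPM in CMM2 and 87.6, 123 and 149 TPM in CMM12, with a KO effect across lines of 0.66 (SE 0.17, unadjusted p = 0.00491 and adjusted p = 0.987 in edgeR). CDKN1A, the inhibitor p21, stood at 37.9, 60.2 and 56.1 TPM in CMM2 and 1.93, 8.0 and 10.7 TPM in CMM12 (1.26, SE 0.38, edgeR adjusted p = 0.987). That effect of CDKN1A was 0.59 with the control of CMM12 left out and 2.31 with that of CMM2 left out. CCND1, cyclin D1, stood at 126, 159 and 146 TPM and 114, 182 and 229 TPM, with a KO effect of 0.89 in CMM12 (SE 0.25, edgeR adjusted p = 0.702) and 0.27 in CMM2 (SE 0.24).

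Between the lines 8 of 25 were called by edgeR, 4 in each direction, beside 25.8% of all genes. CDKN1A was 9.54-fold lower in CMM12 (log2 −3.25, SE 0.36, edgeR adjusted p = 0.00174). RB1, the retinoblastoma gene that holds E2F factors in check, was at 19.7, 19.2 and 32.1 TPM in CMM2 and 7.41, 11.2 and 8.47 TPM in CMM12 (−1.50, SE 0.25, edgeR adjusted p = 0.00647). The kinases CDK4 (−0.92, SE 0.15) and CDK2 (−0.71, SE 0.19) were lower too. MYC, at 60.9, 57.4 and 66.5 TPM and 131, 108 and 117 TPM (0.81, SE 0.15), was higher in CMM12, as were CCND3 (0.86, SE 0.20) and the E2F partners TFDP1 (0.74, SE 0.16) and TFDP2 (1.87, SE 0.43).

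**Figure D5:**
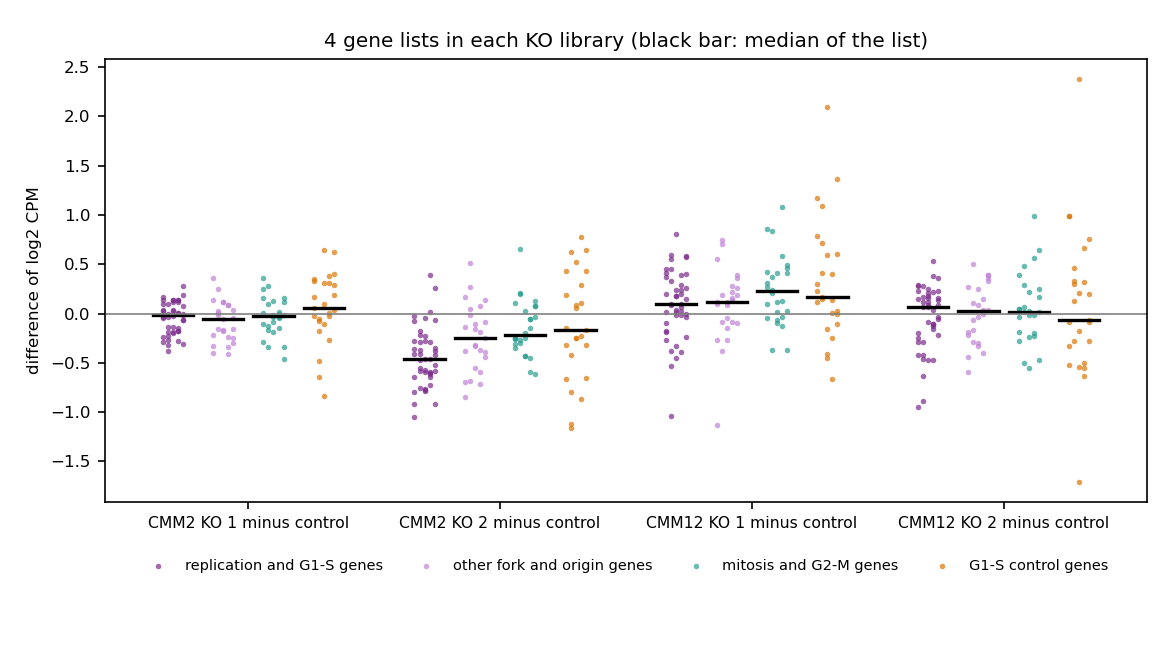
Difference of log2 CPM between each KO library and the control of its line for 4 gene lists, 1 point per gene, with the median of each list as a black bar. In CMM2 KO 2 the bar of the replication and G1-S genes is at −0.46, below those of the other lists, while in the other 3 KO libraries it lies between −0.02 and 0.10.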

How the data were processed

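Estimated gene counts and TPM values of 6 libraries were used as the authors deposited them. Reads were aligned with STAR 2.7.3a and quantified with RSEM 1.3.3 on CanFam3.1, per the submitters' processing notes. RNA came from an RNeasy mini kit and went into NEBNext Ultra RNA libraries, per the labels' protocols. The strand setting was not stated there. The expected counts the authors deposited were made whole by rounding, and 3.22% to 3.63% of the values in a library moved. Of the 30951 rows, 12940 carry no symbol and stayed in library sizes and tests. The TPM values deposited by the authors were used for levels and for limma.

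The main test was edgeR 4.0.16 (quasi-likelihood, TMM factors, filterByExpr over the 4 groups, R 4.3.3), with Benjamini-Hochberg adjustment over the 12270 genes tested. An additive model of line and genotype (3 residual degrees of freedom) gave the KO effect across lines and the line difference. Group means gave the effects within a line and their difference, and line with KO number gave KO 2 against KO 1 (2 residual degrees of freedom each). A lone control was assumed to vary like the KO pairs. Alternatives were DESeq2 1.42.0, limma 3.58.1 on log2(TPM + 1) and log2(TPM + 0.1), other factors and filters, a block for the KO number and each library left out. An edgeR fit with a bias-adjusted estimate of the spread was a further alternative, which was not planned beforehand.

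The genes and lists were chosen with earlier results of these data known. Given in full were called genes (the 6 with the smallest adjusted p where more were called), the 2 with the smallest p in each role and comparison, and PCNA, MCM2, CDC6, CCNE1, CCNE2, RRM2 and TYMS, and of related lists the called genes or the 2 with the smallest p, CDKN1A and CCND1. Neighbours were taken in order of start position from RefSeq's table of protein-coding genes for the assembly UU_Cfam_GSD_1.0. Promoter and protein motifs were not analysed here.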

Additional observations from a re-analysis of the deposited data

How the results depend on the processing

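The KO comparisons had 0 called replication genes under every alternative run. For the line difference, 7 genes were called with limma on log2(TPM + 1), 7 on log2(TPM + 0.1) and 4 on log2(TPM + 1) without a filter, and 4 to 19 with 1 library left out. The median KO effect in CMM12 was 0.022 under each of the 3 limma settings. On log2(TPM + 1), 23 genes were lower in CMM12 KO 1 than in the control and 17 in CMM12 KO 2 than in KO 1. The medians over all genes tested were −0.09 and 0.12 there. Under the limma settings TYMS in CMM12 turned to −0.0072, −0.0074 and −0.0072, and CCNE1 for KO 2 against KO 1 to 0.058, 0.059 and 0.058. The cause was not tested.

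With 1 library left out, these log2 values, none of them called, changed sign. Across lines they ran for RFC2 from −0.40 to 0.036, RRM1 −0.00048 to 0.14, TYMS −0.33 to 0.077, CCNE1 −0.046 to 0.27, POLE −0.31 to 0.049, UHRF1 −0.16 to 0.37, CHAF1B −0.20 to 0.047, PCNA −0.057 to 0.35, CDC6 −0.44 to 0.39, RRM2 −0.34 to 0.22 and CENPF −0.066 to 1.04. In CMM2 they ran for TYMS from −0.78 to 0.13, CCNE2 −0.94 to 0.021, UHRF1 −0.47 to 0.092, CHAF1A −0.28 to 0.036 and MCM2 −0.28 to 0.13. In CMM12 they ran for RRM2 from −0.28 to 0.59, RRM1 −0.098 to 0.23, CHAF1B −0.47 to 0.096 and TYMS −0.017 to 0.084. For the difference of KO effects they ran for TYMS from −0.10 to 0.82, CCNE2 −0.58 to 0.42 and MCM2 −0.35 to 0.064. Between the lines CCND1 ran from −0.0091 to 0.31. For KO 2 against KO 1 they ran for TYMS from −0.89 to 0.071, CCNE1 −0.098 to 0.065, MCM10 −0.60 to 0.032, PCNA −0.21 to 0.055, CDC6 −0.51 to 0.16, CDKN1A −0.46 to 0.62 and CCND1 −0.27 to 0.32. Where a KO library was left out of that comparison, the controls fed the estimate through the line term.

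Differences of KO 2 and KO 1 correlated between lines at r = 0.06 across 12270 genes, which are not independent replicates. With 2 pairs of single libraries, that value cannot settle whether the KO numbers pair the libraries. With the replicate block, 9 of the 13 genes called between the lines were called, and the medians were −0.08 across lines, 0.35 for the difference and −0.38 between lines. No KO comparison gained a call under the block. Leaving out a control could not be fitted for the KO effect of its own line or for the difference.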
